A study of Macaca mulatta with 6 samples.

Results

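The genes described here are a set of 45 mitosis and spindle genes, chosen by symbol for their known roles in cell division, by a rule that uses no measured value. Every row of the deposited table that carries one of the 45 symbols was taken, 82 transcripts in all, and the FPKM (fragments scaled to transcript length and to the number of mapped fragments) of a gene's transcripts were summed. All 45 symbols were found among the 24932 genes of the table. With a mean of at least 1 FPKM over the 6 libraries, 44 of them were tested. The remaining member, MKI67, which encodes the proliferation antigen Ki-67, has a row of 1416 bases that is listed at 0 in all 6 libraries. That row lies on the X chromosome, whereas the RefSeq table of macaque genes places MKI67 elsewhere, so no level of MKI67 was read from it.

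The cells were RF/6A, a rhesus macaque choroidal endothelial cell line, grown to confluence on porous culture inserts in medium with fetal bovine serum and antibiotics. In 3 libraries the cells had been exposed for 4 h to 50% normal human serum, in which complement is active and can assemble the membrane attack complex (MAC), a pore in the target membrane. In the other 3 libraries they had been exposed for 4 h to 50% heat-inactivated human serum, the control. Heat treatment inactivates complement along with other heat-labile serum components, which cannot be told apart in this design. The labels do not say that the libraries of a treatment came from separate cultures, so the replicate spread behind each p-value could be purely technical.

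Cells enter mitosis when cyclin B bound to the kinase CDK1 is switched on by CDC25 phosphatases, with the kinases PLK1, AURKA and AURKB driving centrosome maturation, spindle assembly and chromosome alignment. The spindle checkpoint holds the anaphase-promoting complex (APC/C) inactive until every kinetochore is attached to microtubules, after which securin and cyclin B are degraded, sister chromatids part and the cell divides. Many of these genes are transcribed mainly in late S phase, G2 and mitosis, so their summed RNA in a culture is widely used as a measure of how many cells are cycling. Endothelial cells at confluence generally divide little, whereas immortal lines often continue to do so. In RNA from whole cultures, a change in the number of cells in mitosis and a change in RNA per cell cannot be told apart.

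The low FPKM values of the replicate 2 and 3 libraries were whole numbers of fragments, and gave depths of 15100000 and 17900000 fragments with normal serum and of 16800000 and 14700000 with heat-inactivated serum. For the replicate 1 libraries of both treatments 41.4% (normal serum) and 46.0% (heat-inactivated serum) of low values were whole within 0.1 fragment, against 100% in the others, so these 2 libraries differ from the others in how their values are composed, and their depths are rough (about 14400000 and 15900000). In replicates 2 and 3, the tested members rested on averages of 73.8 fragments (SPC24) to 3537.5 fragments (CDC25B) per library, with a median of 811.6. Counting error alone then amounts to 11.6% of the value for SPC24 and 1.68% for CDC25B. Of 10 endothelial markers, PECAM1, ESAM, ENG and FLI1 averaged at least 1 FPKM over the 6 libraries. CDH5, KDR, VWF, TEK, TIE1 and CLDN5 did not, and CDH5 was listed at 0 in all 3 heat-inactivated serum libraries. The endothelial list summed to 97.8 to 104.0 FPKM in normal serum, against 73.6 to 75.7 FPKM in heat-inactivated serum. All 4 tested markers rose, the smallest rise being that of ENG (log2 difference 0.27), whose call ended at the same total FPKM (adjusted p = 0.325). The untested markers went both ways. KDR was lower in normal serum (mean 0.105 FPKM, against 0.370 FPKM) and VWF higher (1.05 FPKM, against 0.172 FPKM), each without overlap. The groups of the others overlapped, with lower normal serum means for TEK and TIE1 and higher means for CDH5 and CLDN5. All 7 fibroblast and mural cell markers fell, with sums of 3151 to 3290.4 FPKM in normal serum and 6686 to 7230.2 FPKM in heat-inactivated serum. The part of either shift in the values of the mitosis genes was not tested. The 3 leukocyte markers together stayed between 0.821 and 1.64 FPKM in all 6 libraries, with PTPRC and CD3E each under 1 FPKM on average. Of 4 pigment epithelium markers, RPE65, BEST1 and TYR were each under 1 FPKM on average. PMEL averaged 39.0 FPKM in normal serum and 38.3 FPKM in heat-inactivated serum, and did not pass (adjusted p = 0.829).

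The mitosis and spindle genes did not all move one way: some rose, others fell, and most did not pass the test. In normal serum 10 of the 44 tested members rose and 6 fell relative to heat-inactivated serum at an adjusted p under 0.05 (limma on log2(FPKM + 1), Benjamini-Hochberg over all 11818 genes), and 28 did not pass. The 16 called members are 36.4% of those tested, against 54.0% of all genes tested, of which 27.8% rose and 26.1% fell. The genes that rose were the kinases AURKA, AURKB, PLK1 and CDK1, the cyclins CCNA2 and CCNB1, the checkpoint protein BUB3, the ubiquitin-conjugating enzyme UBE2C, securin (PTTG1) and the kinesin KIF2C. The genes that fell were the phosphatase CDC25B, topoisomerase TOP2A, the spindle pole protein ASPM, the kinesin KIF11, separase (ESPL1) and the centromeric histone CENPA. Called changes were mostly modest, between 1.25-fold (CDK1) and 1.63-fold (AURKB) upward, and downward between 0.835 (CENPA) and 0.490 (CDC25B) of the heat-inactivated serum mean.

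Over the 44 members the median log2 difference (normal minus heat-inactivated serum) was 0.09, against 0.01 over all genes tested, and the median size of the difference was 0.26, against 0.31. CDC25B was the only tested member that changed by at least 2-fold on this scale, or 2.27% of members, against 6.64% of all genes. The 3 normal serum values lay wholly above or wholly below the 3 heat-inactivated serum values for 21 members (12 above, 9 below), or 47.7%, against 62.6% of all genes tested (32.1% above, 30.5% below). These 21 include every called member and 5 others, with BIRC5 and CDCA8 above and KIF14, HMMR and ANLN below. The standard error of a member's log2 difference had a median of 0.11, against 0.09 over all genes. Within replicates 2 and 3, whose low values are whole fragments in both treatments, 5 members rose (AURKA, AURKB, BUB3, CCNA2 and KIF23) and 9 fell (CDC25B, TOP2A, ASPM, KIF11, CCNB2, CENPF, DLGAP5, HMMR and ANLN), against 46.2% of all genes called. Replicate 1 alone holds 1 library per treatment and gives no test.

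**Figure D1:**
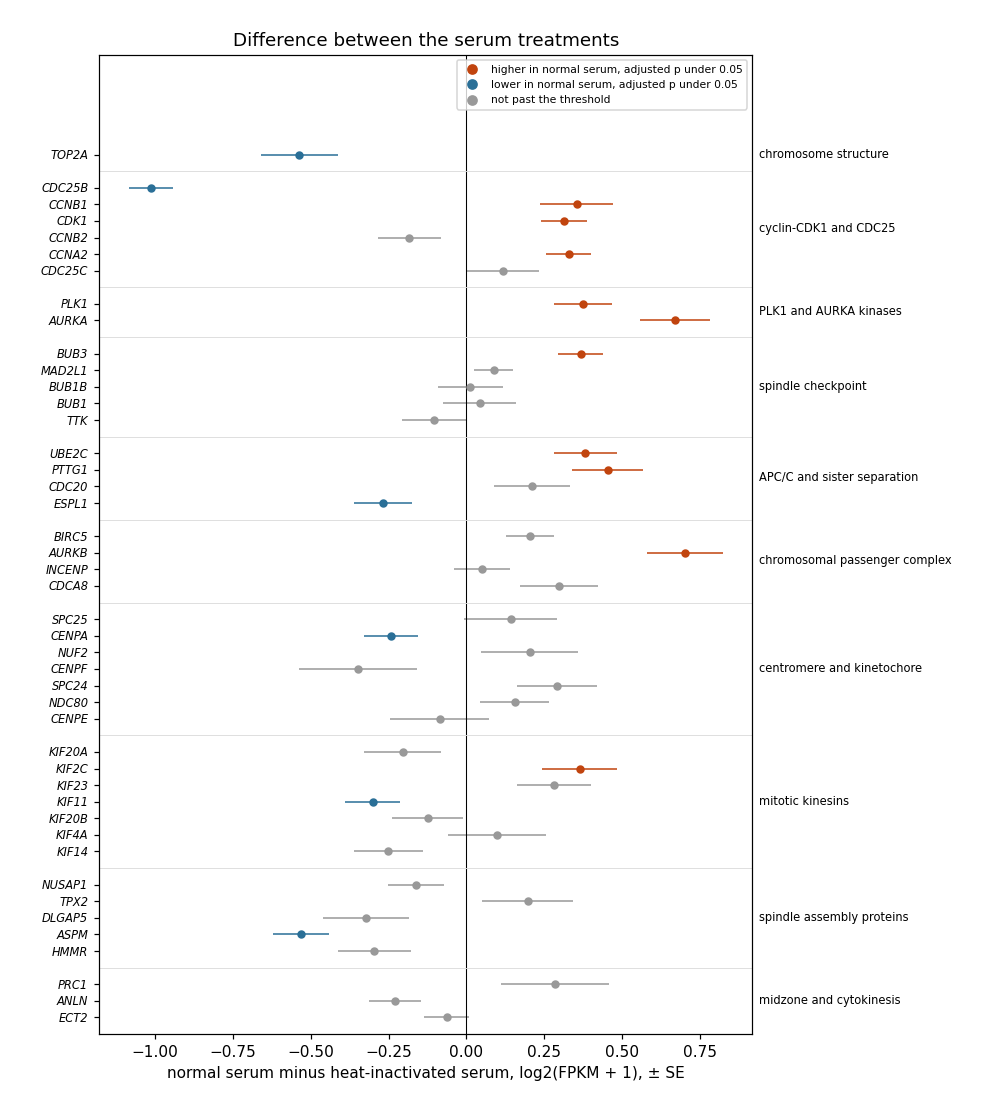
Log2 difference of each of the 44 tested members, normal minus heat-inactivated serum on the log2(FPKM + 1) scale, with bars of 1 standard error from limma (n = 3 libraries per treatment), grouped by role. Coloured points pass an adjusted p of 0.05 and grey points do not; the values run from -1.01 (CDC25B) to 0.70 (AURKB).

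Among the cyclins, CDK1 and the CDC25 phosphatases, 3 of 6 members rose and 1 fell. CDC25B, a phosphatase that activates cyclin-CDK1 complexes at the onset of mitosis, measured 55.4, 53.2 and 55.2 FPKM in normal serum, against 108.4, 121.9 and 104.5 FPKM in heat-inactivated serum. The 2 groups lie far apart and each is narrow, with means of 54.6 ± 1.22 FPKM in normal serum and 111.6 ± 9.12 FPKM in heat-inactivated serum (SD, n = 3 each), a log2 difference of -1.01 ± 0.07 (SE) and an adjusted p of 4.1e-05. CDC25C, the related phosphatase that acts on CDK1 in mitosis, measured 6.84, 7.91 and 7.45 FPKM in normal serum, against 5.58, 7.60 and 7.17 FPKM in heat-inactivated serum. Its groups overlap (log2 difference 0.12, adjusted p = 0.419). CDK1, the kinase at the centre of the mitotic switch, measured 64.1, 64.2 and 54.8 FPKM in normal serum, against 48.4, 49.0 and 49.1 FPKM in heat-inactivated serum. Every normal serum library lies above every heat-inactivated serum library, and replicate 3 has the smallest gap (1.25-fold, log2 difference 0.31 ± 0.07, adjusted p = 0.00961).

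CCNA2, cyclin A2, which acts in S phase and at mitotic entry, had 27.3, 28.1 and 25.1 FPKM in normal serum, against 20.3, 22.4 and 20.8 FPKM in heat-inactivated serum. The groups are separate and the spread within each is small (1.27-fold, log2 difference 0.33 ± 0.07, adjusted p = 0.00642). CCNB1, the cyclin B that partners CDK1, had 66.4, 80.3 and 67.1 FPKM in normal serum, against 48.7, 64.4 and 54.0 FPKM in heat-inactivated serum. Its lowest normal serum value is just above its highest heat-inactivated serum value, and replicate 2 is the highest in both treatments (1.28-fold, log2 difference 0.35 ± 0.12, adjusted p = 0.0368). CCNB2, the other B-type cyclin measured, had 44.1, 47.3 and 41.2 FPKM in normal serum, against 43.4, 54.7 and 53.4 FPKM in heat-inactivated serum. These ranges overlap and the difference did not pass (log2 difference -0.18, adjusted p = 0.162), though CCNB2 was called lower under each of the 4 other scalings (adjusted p between 0.00778 and 0.0323). CCNB1 and CCNB2 thus had values of opposite sign, a difference between genes that was not tested. The call for CCNB1 ended when either of normal serum replicates 2 or 3 or either of heat-inactivated serum replicates 1 or 3 was left out, with adjusted p between 0.0583 and 0.112.

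Both members of the role that holds the spindle kinases PLK1 and AURKA rose. PLK1, which acts at centrosomes, kinetochores and the midbody, measured 53.4, 51.8 and 44.8 FPKM in normal serum, against 37.0, 42.2 and 35.8 FPKM in heat-inactivated serum. The groups are separate by a small gap between 42.2 and 44.8 FPKM (1.30-fold, log2 difference 0.37 ± 0.09, adjusted p = 0.0111). All 3 PLK1 rows of the table lie on a chromosome other than the one the RefSeq table gives for PLK1, and their values are given under the symbol the table carries. AURKA, which matures centrosomes and builds the bipolar spindle, measured 25.8, 28.5 and 23.8 FPKM in normal serum, against 13.7, 18.2 and 16.3 FPKM in heat-inactivated serum. No values overlap and the lowest normal serum library is well clear of the highest control library (1.62-fold, log2 difference 0.67 ± 0.11, adjusted p = 0.00200).

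Of the 4 members of the chromosomal passenger complex, which corrects faulty attachments and then moves to the spindle midzone, AURKB rose and the other 3 did not pass. AURKB, its kinase, measured 72.2, 82.0 and 67.7 FPKM in normal serum, against 39.5, 53.5 and 42.9 FPKM in heat-inactivated serum. The groups are clearly separate, with means of 74.0 ± 7.28 FPKM in normal serum and 45.3 ± 7.30 FPKM in heat-inactivated serum (SD, n = 3 each), and this was the largest rise among the tested members (1.63-fold, log2 difference 0.70 ± 0.12, adjusted p = 0.00233). BIRC5, survivin, the subunit that brings the complex to centromeres, measured 68.3, 73.7 and 65.6 FPKM in normal serum, against 54.8, 62.3 and 62.7 FPKM in heat-inactivated serum. Its groups are separate by a narrow margin, and the difference fell just short of the threshold (log2 difference 0.21, adjusted p = 0.0538). CDCA8, borealin, measured 12.7, 14.5 and 12.1 FPKM in normal serum, against 8.59, 12.0 and 11.0 FPKM in heat-inactivated serum. Its groups nearly touch (log2 difference 0.30, adjusted p = 0.0791), and its row, too, lies on another chromosome than in the RefSeq table. INCENP, the scaffold that binds and activates AURKB, averaged 20.3 FPKM in normal serum and 19.6 FPKM in heat-inactivated serum (adjusted p = 0.660).

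**Figure D2:**
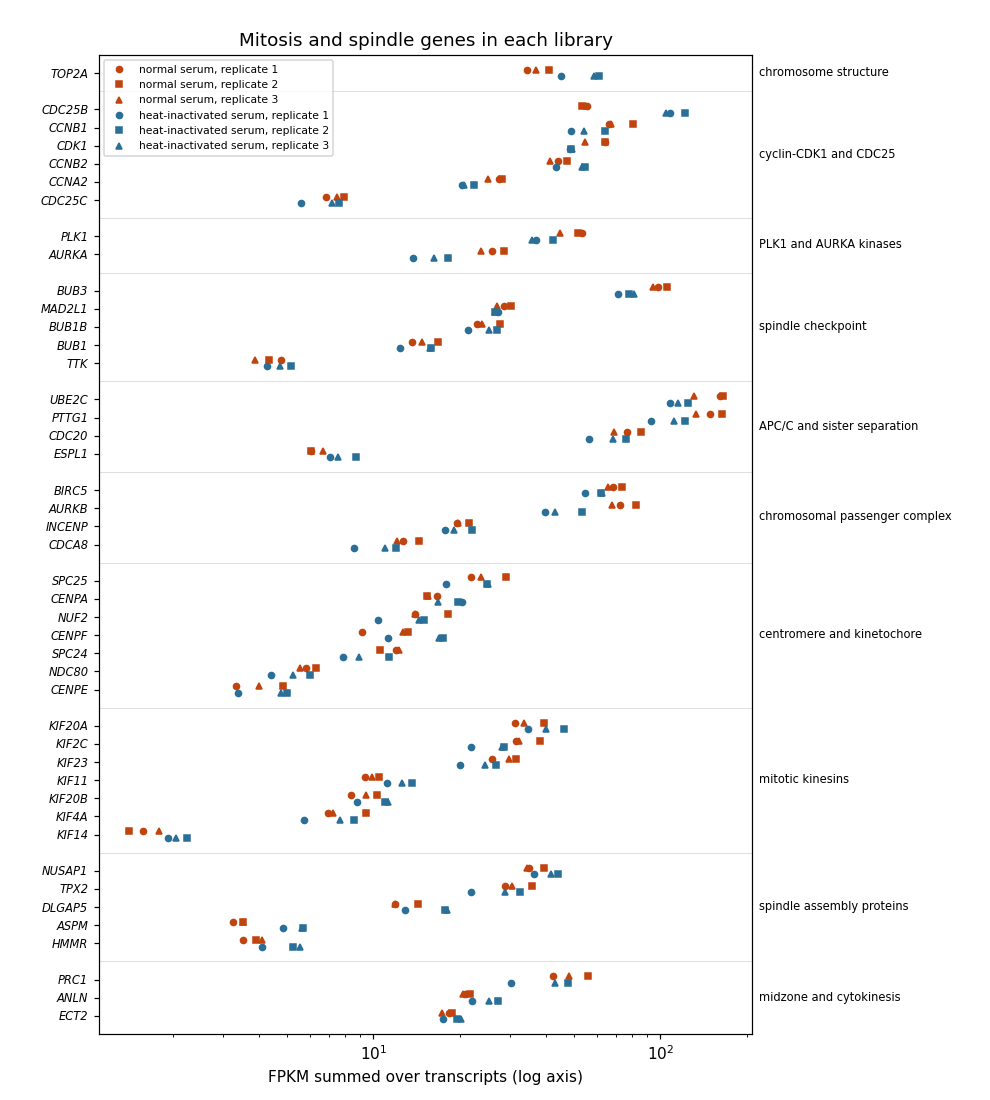
FPKM of the 44 tested members in each library on a log axis, grouped by role, with 1 point per library, normal serum drawn above heat-inactivated serum for each gene and a marker shape per replicate. The groups of AURKA and AURKB lie apart with normal serum higher, those of CDC25B, TOP2A and ASPM lie apart with normal serum lower, and most others lie close together.

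In the spindle checkpoint, 1 of 5 members rose and none fell. BUB3, which holds checkpoint kinases at kinetochores and also occurs outside mitosis, measured 98.0, 105.2 and 94.3 FPKM in normal serum, against 71.2, 77.8 and 81.1 FPKM in heat-inactivated serum. The groups are well separated (1.29-fold, log2 difference 0.37 ± 0.07, adjusted p = 0.00401). Its partners did not pass: BUB1 averaged 15.1 FPKM in normal serum and 14.7 FPKM in heat-inactivated serum (adjusted p = 0.779), and BUB1B, which encodes BUBR1, averaged 24.8 FPKM in normal serum and 24.6 FPKM in heat-inactivated serum (adjusted p = 0.929). MAD2L1, the inhibitor of CDC20, averaged 28.5 FPKM in normal serum and 26.8 FPKM in heat-inactivated serum (adjusted p = 0.270). TTK, the MPS1 kinase that starts checkpoint signalling, averaged 4.32 FPKM in normal serum and 4.72 FPKM in heat-inactivated serum (adjusted p = 0.420).

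Among the 4 genes of APC/C activation and sister separation, 2 rose and 1 fell. UBE2C, the ubiquitin-conjugating enzyme that works with the APC/C, was the most abundant member by FPKM summed over its rows. Its chromosome 10 row alone averaged 125.4 FPKM in normal serum and 93.4 FPKM in heat-inactivated serum, less than PTTG1 (148.7 and 108.6 FPKM). Summed, UBE2C had 161.2, 165.0 and 130.5 FPKM in normal serum, against 108.3, 125.2 and 114.9 FPKM in heat-inactivated serum. Its groups are separate, but the third normal serum library lies close to the control range (1.31-fold, log2 difference 0.38 ± 0.10, adjusted p = 0.0158). PTTG1, securin, the inhibitor of separase, had 148.4, 164.3 and 133.5 FPKM in normal serum, against 93.0, 121.5 and 111.2 FPKM in heat-inactivated serum. No values overlap (1.37-fold, log2 difference 0.45 ± 0.11, adjusted p = 0.0123). ESPL1, separase itself, had 6.08, 6.07 and 6.69 FPKM in normal serum, against 7.08, 8.74 and 7.55 FPKM in heat-inactivated serum. The groups are separate in the downward direction (0.807 of the control mean, log2 difference -0.27 ± 0.09, adjusted p = 0.0424). CDC20, the APC/C activator restrained by the checkpoint, had 76.6, 85.8 and 69.2 FPKM in normal serum, against 56.5, 75.7 and 68.2 FPKM in heat-inactivated serum. Its groups overlap (log2 difference 0.21, adjusted p = 0.179). The UBE2C call ended without normal serum replicate 1 or 2 or heat-inactivated serum replicate 1 (adjusted p between 0.0507 and 0.0537). The ESPL1 call ended without any of the normal serum libraries, or without heat-inactivated serum replicate 2 or 3 (adjusted p between 0.0513 and 0.130).

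TOP2A, the topoisomerase that untangles sister chromatids, fell. It measured 34.4, 40.9 and 36.9 FPKM in normal serum, against 45.2, 61.1 and 58.9 FPKM in heat-inactivated serum. The groups do not overlap, and heat-inactivated serum replicate 1 lies nearest to the normal serum libraries (0.680 of the control mean, log2 difference -0.54 ± 0.12, adjusted p = 0.00811).

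Of the 7 centromere and kinetochore members, CENPA fell and the other 6 did not pass. CENPA, the histone H3 variant that marks centromeres, measured 16.6, 15.4 and 15.5 FPKM in normal serum, against 20.4, 19.7 and 16.8 FPKM in heat-inactivated serum. The third control library comes within a fraction of the highest normal serum library (0.835 of the control mean, log2 difference -0.24 ± 0.09, adjusted p = 0.0475). Its call ended without any of the normal serum libraries, or without heat-inactivated serum replicate 1 or 2 (adjusted p between 0.0586 and 0.135). The NDC80 complex, which binds microtubule ends, was represented by NDC80, NUF2, SPC24 and SPC25. SPC25, the highest of the kinetochore genes, had 22.0, 28.9 and 23.8 FPKM in normal serum, against 17.9, 24.8 and 25.0 FPKM in heat-inactivated serum. Its groups overlap (log2 difference 0.14, adjusted p = 0.448), and the adjusted p of SPC24, NDC80 and NUF2 was 0.0945, 0.273 and 0.301, with log2 differences of 0.29, 0.15 and 0.20. CENPF, a large protein of the outer kinetochore, had 9.16, 13.2 and 12.7 FPKM in normal serum, against 11.3, 17.5 and 17.0 FPKM in heat-inactivated serum. Replicate 1 is low in both treatments and the groups overlap (log2 difference -0.35, adjusted p = 0.158). CENPE, a kinetochore kinesin, averaged 4.06 FPKM in normal serum and 4.38 FPKM in heat-inactivated serum (adjusted p = 0.676).

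The 7 mitotic kinesins, motors that move along or take apart microtubules, held 1 member that rose and 1 that fell. KIF2C, which depolymerises microtubules at centromeres, measured 31.4, 38.2 and 32.1 FPKM in normal serum, against 21.9, 28.4 and 28.1 FPKM in heat-inactivated serum. Its groups are separate (1.29-fold, log2 difference 0.36 ± 0.12, adjusted p = 0.0357). KIF11, the motor that pushes spindle poles apart, measured 9.38, 10.5 and 9.88 FPKM in normal serum, against 11.2, 13.6 and 12.6 FPKM in heat-inactivated serum. Its groups are separate in the other direction (0.795 of the control mean, log2 difference -0.30 ± 0.09, adjusted p = 0.0222). The KIF2C call ended without normal serum replicate 2 or 3 or heat-inactivated serum replicate 1 (adjusted p of 0.0612 or more). The KIF11 call ended without normal serum replicate 1 or 3 or heat-inactivated serum replicate 2 or 3 (adjusted p between 0.0572 and 0.0771).

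KIF20A, a midzone kinesin and the highest of this role, measured 31.1, 39.5 and 33.5 FPKM in normal serum, against 34.5, 46.0 and 40.1 FPKM in heat-inactivated serum. Its groups overlap (log2 difference -0.20, adjusted p = 0.199). KIF23, the motor of the centralspindlin complex, measured 25.8, 31.4 and 29.7 FPKM in normal serum, against 20.0, 26.8 and 24.5 FPKM in heat-inactivated serum. Its ranges overlap (log2 difference 0.28, adjusted p = 0.0799). KIF14, a kinesin of cytokinesis and the lowest member tested, had 1.58, 1.41 and 1.79 FPKM in normal serum, against 1.93, 2.25 and 2.06 FPKM in heat-inactivated serum. Its groups are separate, with a log2 difference of -0.25 and an adjusted p of 0.0926. KIF20B and the chromosome-bound motor KIF4A did not pass, with log2 differences of -0.12 and 0.10 (adjusted p = 0.384 and 0.623).

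In the group of spindle assembly proteins 1 of 5 members fell and none rose. ASPM, which gathers microtubule minus ends at spindle poles, measured 3.24, 3.51 and 3.52 FPKM in normal serum, against 4.87, 5.70 and 5.64 FPKM in heat-inactivated serum. Both groups are narrow and far apart (0.634 of the control mean, log2 difference -0.53 ± 0.09, adjusted p = 0.00214). HMMR, a microtubule-binding protein, had 3.52, 3.91 and 4.09 FPKM in normal serum, against 4.09, 5.27 and 5.55 FPKM in heat-inactivated serum. Its groups touch (log2 difference -0.30, adjusted p = 0.0657). NUSAP1, which bundles spindle microtubules and is the highest of these genes, had 34.8, 39.4 and 34.3 FPKM in normal serum, against 36.4, 43.9 and 41.6 FPKM in heat-inactivated serum. These overlap (log2 difference -0.16, adjusted p = 0.169), though NUSAP1 was called lower under each of the 4 other scalings (adjusted p between 0.00647 and 0.0401). DLGAP5, a stabiliser of kinetochore fibres, averaged 12.7 FPKM in normal serum and 16.3 FPKM in heat-inactivated serum (log2 difference -0.32, adjusted p = 0.0828). TPX2, the activator of AURKA at the spindle, averaged 31.7 FPKM in normal serum and 27.7 FPKM in heat-inactivated serum (log2 difference 0.20, adjusted p = 0.285).

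None of the 3 midzone and cytokinesis genes passed. PRC1, which bundles the antiparallel microtubules of the midzone, measured 42.4, 56.0 and 47.9 FPKM in normal serum, against 30.2, 47.7 and 43.0 FPKM in heat-inactivated serum. Heat-inactivated serum replicate 1 is far below the other controls and the groups overlap (log2 difference 0.29, adjusted p = 0.201). ANLN, anillin, a scaffold of the contractile ring, measured 20.9, 21.6 and 20.5 FPKM in normal serum, against 22.2, 27.2 and 25.3 FPKM in heat-inactivated serum. Its groups are separate and its adjusted p was 0.0501, with a log2 difference of -0.23. ANLN was called lower under each of the 4 other scalings of the libraries (adjusted p between 0.00250 and 0.0202). It was also called lower with its most abundant transcript in place of the sum (adjusted p = 0.0165). With the length trend removed it did not pass (adjusted p = 0.209). Among the fits with 1 library left out, it passed only without heat-inactivated serum replicate 1 (adjusted p = 0.0130). ECT2, the exchange factor that activates RhoA at the cleavage site, averaged 18.2 FPKM in normal serum and 19.1 FPKM in heat-inactivated serum (adjusted p = 0.492).

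The tested members varied together between libraries of 1 treatment. Heat-inactivated serum replicate 1 was the lowest control for 40 of the 44 members (90.9%), against 40.4% of all genes tested. Normal serum replicate 1 was the lowest of its treatment for 20 members (45.5%, against 41.0% of all genes). Replicate 2 was the highest for 35 members in normal serum and for 34 members in heat-inactivated serum, against 35.4% and 29.3% of all genes. The FPKM of all members summed to 1472, 1631 and 1407 in normal serum, against 1222, 1510 and 1397 in heat-inactivated serum, ranges that overlap. The median gap of replicate 1 from the mean of the other 2 libraries, on the log2 scale, was -0.06 in normal serum and -0.30 in heat-inactivated serum over the members. Over all genes it was -0.02 in normal serum and -0.01 in heat-inactivated serum. With heat-inactivated serum replicate 1 left out, the median log2 difference of the members was -0.01, and 7 members rose and 10 fell, with 48.5% of all genes called. Leaving out heat-inactivated serum replicate 2 instead gave a median of 0.16, with 13 members higher and 3 lower and 46.9% of all genes called.

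**Figure D3:**
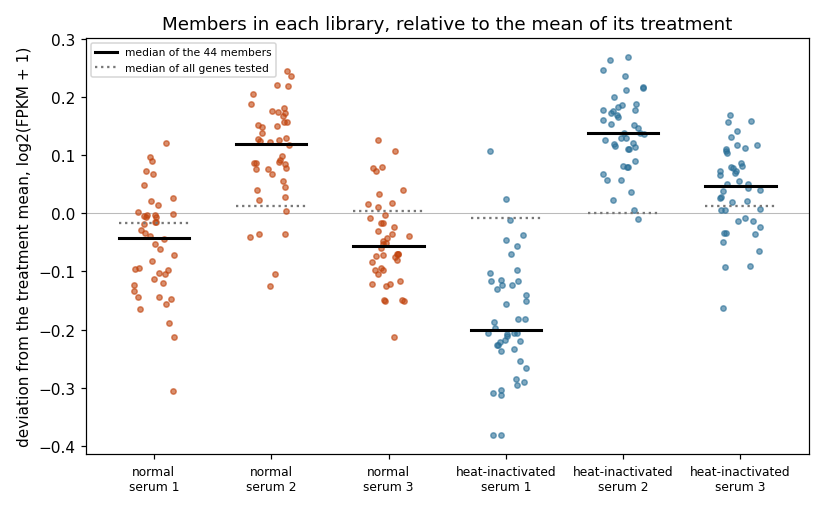
Deviation of each of the 44 tested members from its treatment mean, in log2(FPKM + 1) units, with 1 point per member in each library, normal serum left of heat-inactivated serum, a bar at the members' median and a dotted line at the median of all genes tested. The members' median is -0.04, 0.12 and -0.06 in normal serum replicates 1 to 3 and -0.20, 0.14 and 0.05 in heat-inactivated serum replicates 1 to 3.

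Transcript length moved with the direction of the difference. The 10 members that rose had lengths of 737 to 2657 bases with a median of 1821 bases, whereas the 6 that fell had 1382 to 9768 bases with a median of 3740 bases. None of the 10 tested members of 4000 bases or more rose and 3 fell (median log2 difference -0.24). Of the 6 members under 1000 bases 3 rose and none fell (median 0.33). Over all genes tested the medians of the same length classes were -0.11 and 0.08, with 20.5% rising and 37.0% falling among the 1197 genes of 4000 bases or more. Across the 44 members, which share libraries and differ in level with length, Spearman's rho between log2 difference and length was -0.61, against -0.10 across all genes, and rho between length and FPKM was -0.56. With the trend of each library's values on length removed, when 53.7% of all genes were called, 10 members that rose and 5 that fell kept their calls, KIF23 was added (adjusted p = 0.0437) and ESPL1 was lost (log2 difference -0.11, adjusted p = 0.301). With the trend removed, rho between log2 difference and length across the 44 members was -0.45, against -0.61 before. What length has to do with the differences was not tested beyond this.

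**Figure D4:**
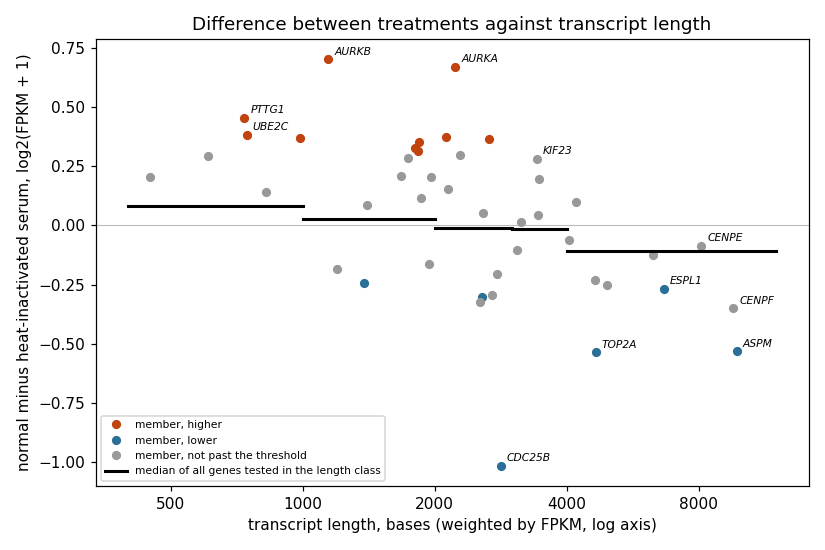
Log2 difference of each tested member (normal minus heat-inactivated serum) against transcript length in bases, weighted by FPKM where a gene has several transcripts, on a log axis; black bars give the median of all genes tested in each length class. The members of 4000 bases or more lie at or below 0.10, and those under 1000 bases lie above 0.

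Many of the rises depended on how the libraries were scaled. Rescaling all libraries to the same total FPKM shifted the median log2 difference of all genes to -0.12, against 0.01 as deposited. Heat-inactivated serum replicate 3 draws 142052 of its 1007949 FPKM from the row of a microRNA, MIR1282, and without that row the shift was -0.18. Relative to the median of all genes the members' median was 0.08 as deposited, 0.08 and 0.07 under these 2 scalings, 0.08 under median-of-ratios scaling and 0.05 under quantile normalization. The members called were 10 higher and 6 lower as deposited, 2 higher and 12 lower at the same total FPKM, 2 higher and 17 lower without MIR1282, 4 higher and 9 lower under quantile normalization, and 8 higher and 12 lower under median-of-ratios scaling. Of all genes, 54.0% were called as deposited, 47.6% at the same total FPKM, 57.5% without MIR1282, 51.5% under quantile normalization and 54.6% under median-of-ratios scaling. Over all genes the share of calls that were rises was 51.6% as deposited, 34.7% at the same total FPKM and 28.4% without MIR1282. It was 47.2% under quantile normalization and 40.1% under median-of-ratios scaling. Under all 4 scalings 7 members kept their calls, AURKA and AURKB upward and CDC25B, TOP2A, ASPM, KIF11 and CENPA downward. CCNB2, NUSAP1 and ANLN did not pass as deposited but were called lower under all 4. HMMR and DLGAP5 were called lower under all but quantile normalization. CENPF, KIF14, KIF20A, TTK, KIF20B and ECT2 were called lower under fewer of the scalings. The rises of PLK1, CDK1, UBE2C and PTTG1 did not pass at the same total FPKM, under quantile normalization or in replicates 2 and 3 alone, and those of CCNA2 and BUB3 did not pass at the same total FPKM. Those of CCNB1 and KIF2C did not pass under any of the 4 scalings or in replicates 2 and 3 alone. The fall of ESPL1 did not pass under quantile normalization (adjusted p = 0.103) or in replicates 2 and 3 alone (adjusted p = 0.0728), nor did that of CENPA in replicates 2 and 3 alone (adjusted p = 0.119). TOP2A, CDC25B, AURKA, AURKB and ASPM were called in every alternative that was run for them, and no called member changed direction in any.

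**Figure D5:**
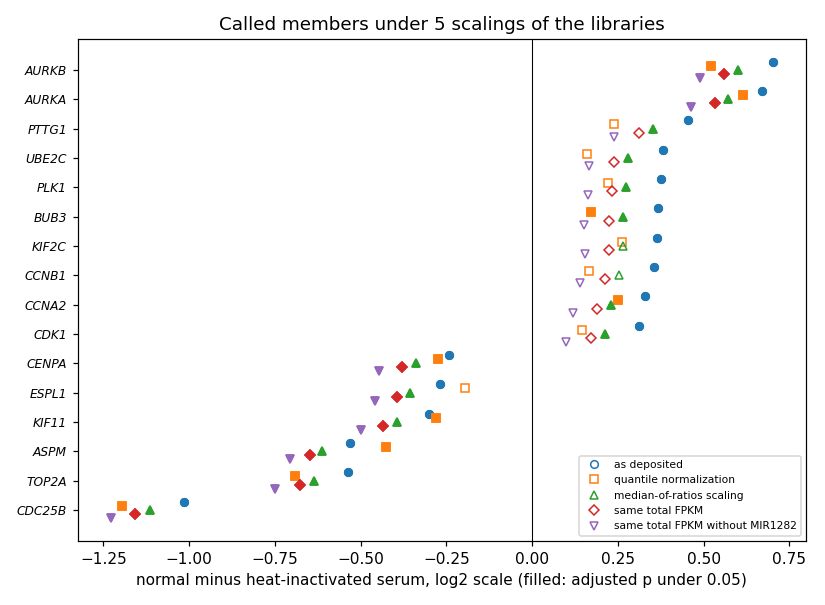
Log2 difference of the 16 called members (normal minus heat-inactivated serum) as deposited and under the 4 other scalings of the libraries, 1 marker shape each, filled where the adjusted p is under 0.05. AURKA and AURKB stay filled above 0 and CDC25B, TOP2A, ASPM, KIF11 and CENPA stay filled below 0.

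Several members were split over transcripts in the table. Of the 64 member transcripts tested in the authors' deposited table, 11 were higher and 10 lower at a q-value under 0.05, or 32.8%, against 41.1% of the 17230 transcripts tested there. The genes differed in part from those called here: PLK1, UBE2C and CENPA had no transcript under that q-value. Some members that did not pass here had a transcript under it, with CENPF, HMMR, KIF14, ANLN and KIF20A lower and PRC1, CDCA8 and KIF23 higher. The 2840-base transcript of CDC25B (log2 -1.03, q = 2.23e-04 in the authors' deposited table) is the only member transcript among the 1143 that carry all of the authors' marks of a selected gene. For UBE2C the 808-base transcript on chromosome 10 had 132.6, 134.3 and 109.3 FPKM in normal serum, against 86.8, 102.1 and 91.2 FPKM in heat-inactivated serum. A 468-base row with the same symbol lies on chromosome 1, where the RefSeq table does not place UBE2C. That row had 28.6, 30.7 and 21.3 FPKM in normal serum, against 21.4, 23.2 and 23.7 FPKM in heat-inactivated serum. The groups are separate in the 808-base row and overlap in the 468-base row, and how fragments were split between the 2 rows is uncertain. The PLK1 transcript of 1819 bases had 11.3, 9.01 and 7.01 FPKM in normal serum, against 6.98, 3.00 and 0.619 FPKM in heat-inactivated serum. With the most abundant transcript in place of the sum, PLK1 no longer passed (log2 difference 0.23, adjusted p = 0.109), nor did KIF2C (adjusted p = 0.139), CENPA (adjusted p = 0.106) or ESPL1 (adjusted p = 0.0529).

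Genes that act beside the members are counted against all genes tested, of which 27.8% rose and 26.1% fell. Of 56 other mitosis and spindle genes tested, 15 rose (26.8%) and 9 fell (16.1%), with a median log2 difference of 0.06. They include CENPM, a constitutive centromere protein (1.73-fold, adjusted p = 0.00114), and CKS2, a small subunit that binds CDK1 (1.55-fold, adjusted p = 0.00134), while the kinetochore gene NSL1 fell to 0.656 of the control mean (adjusted p = 0.00106). CKS1B, the paralogue of CKS2, rose 1.34-fold (adjusted p = 0.00190), a call that ended at the same total FPKM (adjusted p = 0.0649) and under quantile normalization (adjusted p = 0.159). Of 17 APC/C genes 7 rose (41.2%) and 3 fell (17.6%), with a median of 0.09. UBE2S, which extends ubiquitin chains after UBE2C has started them, averaged 303.7 ± 51.9 FPKM in normal serum and 111.4 ± 5.95 FPKM in heat-inactivated serum (SD, n = 3 each), a 2.73-fold rise. The APC/C subunits CDC26 and ANAPC15 rose 1.65-fold and 1.78-fold, and ANAPC1, the largest scaffold, fell to 0.733 of the control mean.

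Of 17 condensin and cohesin genes, whose products shape chromosomes and hold sisters together, none rose and 4 fell (23.5%), with a median of -0.05. STAG2, a cohesin subunit, fell to 0.565 and NCAPD2, a condensin subunit, to 0.699 of the control mean. PDS5B (0.834, adjusted p = 0.0474) and NIPBL (0.798, adjusted p = 0.0476) lost their calls under most alternatives, including quantile normalization (adjusted p = 0.205 and 0.134), removal of the length trend (0.270 and 0.643) and replicates 2 and 3 alone (0.0922 and 0.131). PDS5B lost its call without any 1 of the 6 libraries (adjusted p between 0.0561 and 0.145), and NIPBL without any 1 except normal serum replicate 2 (adjusted p between 0.0752 and 0.119).

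Among 21 transcription factors and complexes of the cell cycle, 7 rose (33.3%) and 2 fell (9.52%), with a median of 0.12. E2F7, a repressor of E2F targets, averaged 17.3 ± 1.15 FPKM in normal serum and 4.31 ± 0.418 FPKM in heat-inactivated serum, a 4.02-fold rise. MYBL2, which binds the MuvB complex to activate mitotic genes, rose 1.63-fold and E2F4 1.52-fold. E2F3 rose 1.40-fold, a call that ended at the same total FPKM (adjusted p = 0.0582). FOXM1, the factor that activates many G2 and mitosis genes, was singled out after its values were seen. It averaged 36.9 ± 2.64 FPKM in normal serum and 29.9 ± 3.23 FPKM in heat-inactivated serum (SD, n = 3 each; log2 difference 0.30, adjusted p = 0.0305). Its call ended at the same total FPKM (adjusted p = 0.267), under quantile normalization and median-of-ratios scaling, in replicates 2 and 3 alone, and without normal serum replicate 2 or 3 or heat-inactivated serum replicate 1 or 3 (adjusted p between 0.0535 and 0.0995).

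Of 20 genes that control entry into mitosis, 11 rose (55.0%) and 4 fell (20.0%), with a median of 0.30. CDKN1A, the CDK inhibitor p21, rose 2.65-fold and GADD45A, a stress-induced gene that restrains CDK1, rose 1.57-fold. CCNG2, an unusual cyclin found in cells that leave the cycle, fell to 0.478 and CDKN1B, the CDK inhibitor p27, to 0.657 of the control mean. Of 43 DNA replication genes 16 rose (37.2%) and 4 fell (9.30%), with a median of 0.18. UHRF1, which recruits maintenance methylation to new DNA, rose 1.81-fold and DBF4, the activator of the replication kinase CDC7, 1.79-fold. RRM2, a ribonucleotide reductase subunit, rose 1.58-fold and PCNA, the sliding clamp, 1.41-fold.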

How the data were processed

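Polyadenylated RNA of RF/6A cells was sequenced in 6 libraries, 3 per treatment. TopHat2 2.0.7, Cufflinks 2.1.1 and Cuffdiff 2.1.1 are named in the submitters' processing notes, and a genome build was not given in the sources used here. For every transcript the authors deposited FPKM in each library, with the authors' log2 fold changes, p-values and q-values, which were only copied. FPKM were summed over the transcripts of a symbol (7008 gene IDs had no symbol, and 256 were given one from a gene name table). Those averaging 1 FPKM or more were tested on log2(FPKM + 1), a scale that understates changes of low genes, with limma 3.58.1 in R 4.3.3 (trended empirical Bayes, Benjamini-Hochberg, threshold 0.05), and fitted to the 6 libraries with no covariate. Values per library are given for called members and the most abundant member of each role, and for some other members, chosen after their values were seen; of each related list, up to 4 genes with the smallest adjusted p are named. The members and gene lists were chosen with earlier results of these data known. Alternatives covered pseudocount, filter, scaling, variance model, transcript choice, libraries, replicate number and length. Whether reads were assigned by strand is not given.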

Additional observations from a re-analysis of the deposited data

How the results depend on the processing

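In 23 alternatives to the fit reported, of which the removal of the length trend, with and without the replicate block, and the total without MIR1282 were chosen after seeing the data, no called member changed direction. Members rising numbered 2 at the same total FPKM and 2 without MIR1282, 4 under quantile normalization and 5 in replicates 2 and 3 alone, against 10 as reported. Members falling numbered 12, 17 and 12 at the same total, without MIR1282 and under median-of-ratios scaling, against 6 as reported. Over all genes 1952 rose at the same total FPKM, and 1927 rose and 4868 fell without MIR1282, against 3291 and 3090 as reported. In the 6 related lists 28 rose at the same total, 37 in replicates 2 and 3 alone and 26 without MIR1282, against 56, and 50 fell without MIR1282, against 26. Leaving out 1 library at a time gave 7 to 13 members rising and 3 to 10 falling, 38 to 53 related genes rising and 15 to 25 falling, and 2807 to 3071 genes rising and 2564 to 2877 falling. The lowest count of falling members, 3, came without normal serum replicate 1 or 3 or heat-inactivated serum replicate 2, and 10 without heat-inactivated serum replicate 1; the lowest related counts of falls were 15 and 16, without heat-inactivated serum replicate 3, and without normal serum replicate 1 or heat-inactivated serum replicate 2. The labels do not say what a shared replicate number means, and the pairing was not taken as given: deviations of same-numbered libraries correlated by 0.193, 0.033 and 0.006 over all genes (0.759, 0.371 and 0.148 over the members), and normal serum replicate 2 correlated best with heat-inactivated serum replicate 3 (0.106). With the replicate block, 14 members rose and 11 fell, all 16 called members among them, and 6775 genes were called (57.3%). A term for the replicate 1 libraries gave 14 and 10, with 7063 genes called (59.8%). The cause of these changes was not tested. Without a filter on low values CCNB1, KIF2C, ESPL1 and CENPA did not pass (adjusted p between 0.0594 and 0.0728), nor did CENPA without a variance trend (0.0571). Members with few fragments, such as SPC24 (counting error 11.6%), are the least precisely measured.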
